A study of Mus musculus with 6 samples.

Results

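ATF4 and the genes it switches on during the integrated stress response were followed in the tibialis anterior (TA) muscle of aged mice given BML-260. The list had 10 genes, chosen by symbol: Atf4, Ddit3, Trib3, Asns, Chac1, Psat1, Phgdh, Slc7a11, Fgf21 and Gdf15. Of these, 8 were among the 16800 genes of the TPM tables, and all 8 passed the filter on low counts that left 16188 genes for testing. Fgf21 and Gdf15 had too few reads to be tested and are given by their raw counts. RNA was sequenced from the TA muscle of 6 male C57BL/6J mice, 24 months old by the sample labels (the study's results section gives an older age). One group of 3 mice received vehicle (DMSO with a detergent) and the other 3 received BML-260, a small molecule that the study uses to inhibit the phosphatase DUSP22. BML-260 was given at 5 mg/kg by injection once a day for 4 weeks. The labels name no transgene or deletion in either group, all 6 mice were aged, and no young mice were part of this comparison. Each library came from the TA muscle of 1 mouse, a mixture of cell types in which fewer cells of a type and less RNA per cell cannot be told apart.

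The integrated stress response begins when a kinase (PERK, GCN2, PKR or HRI) phosphorylates the initiation factor eIF2 alpha. General protein synthesis is then lowered, while the mRNA of Atf4 is translated more because of upstream open reading frames. The ATF4 protein binds with C/EBP partners at short composite sites, named C/EBP-ATF response elements (CARE), and activates genes for amino acid synthesis, amino acid uptake, redox balance and cell death. In skeletal muscle this program is known to follow mitochondrial stress, amino acid shortage and disuse, and its secreted products FGF21 and GDF15 act on other organs. Because ATF4 is controlled by translation, the level of its mRNA does not give the level of its protein.

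The composite site is shown first, since it is the feature by which ATF4 is thought to act on these genes. The letters TGATGNAA were searched on both strands in the RefSeq promoter windows of assembly GRCm38.p6, which run from 250 bases before to 50 bases after the start site. All 10 genes had a window, and 5 of them held a match: Trib3, Asns, Chac1, Slc7a11 and Fgf21. Of all 32851 windows, 3.97% held one, and of all 27025 genes with a window 4.51% had a match. The matches are printed below with their flanks on the strand of the gene, 5′ to 3′, with the CARE letters in capitals (as their reverse complement where the match lay on the other strand).
Trib3 (chr2:152344028-152344057, minus strand): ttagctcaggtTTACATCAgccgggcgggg
Asns (chr6:7693214-7693243, minus strand): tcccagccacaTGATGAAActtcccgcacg
Chac1 (chr2:119351038-119351067, plus strand): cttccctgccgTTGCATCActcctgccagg
Slc7a11 (chr3:50443645-50443687, minus strand): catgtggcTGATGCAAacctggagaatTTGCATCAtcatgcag
Fgf21 (chr7:45615611-45615640, minus strand): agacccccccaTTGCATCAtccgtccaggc

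Slc7a11 was the one listed gene with a pair of matches, in opposite directions. They lay at bases -66 to -59 and -47 to -40 from the start site of its window. That start site lies within the RefSeq span of the gene (chr3:50364936-50499087) and not at its end. Asns held its match at -23 to -16, Fgf21 at -139 to -132, Chac1 at -193 to -186 and Trib3 at 14 to 21, inside the transcribed part. In the windows of Atf4, Ddit3, Psat1, Phgdh and Gdf15 these letters were not found. A match is a run of letters and was not tested for binding.

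**Figure D1:**
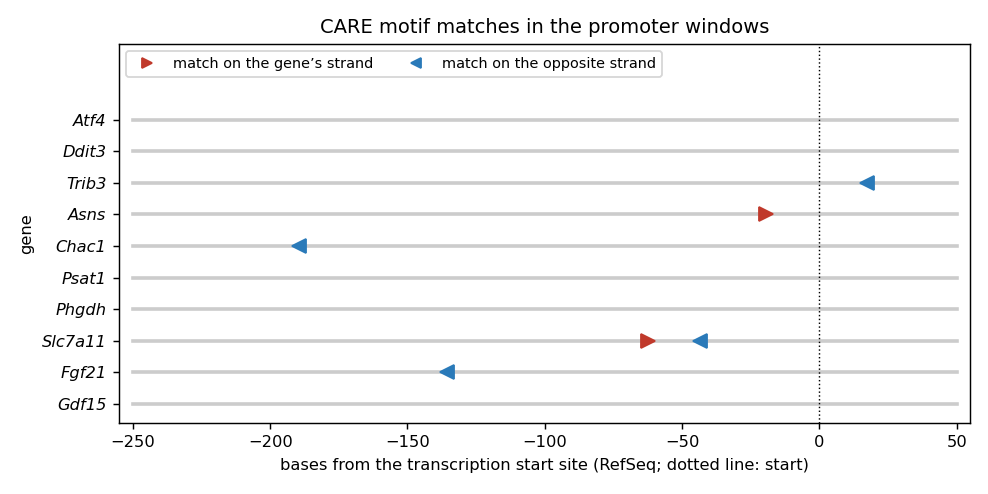
CARE matches (TGATGNAA) in the promoter windows of the 10 listed genes; the x axis is the distance in bases from the RefSeq start site, and the arrows point in the direction of the match. Matches lie in 5 windows, from -193 (Chac1) to 21 (Trib3), and Slc7a11 has 2.

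The libraries held between 39522890 and 56998875 counts, and 1 of them stood apart. Vehicle replicate 3 had the highest normalized count (raw count divided by DESeq2's size factor) for 32.3% of the 16188 tested genes and the highest TPM for 61.4% of the 16800 genes in the TPM tables. TPM is scaled for transcript length and library total, but not for a shift in which genes fill the library. Levels of different genes were compared by TPM, and libraries mainly by normalized counts. Fold changes, list medians and calls are also given without vehicle replicate 3.

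By TPM, the listed genes fell into abundant and scarce ones. Atf4, the transcription factor itself, had the highest level, with a median of 130.4 TPM over the 6 libraries (range 111 to 348). Chac1, an enzyme that degrades glutathione, followed with a median of 45.4 TPM (22.8 to 80.7), and Ddit3, which encodes the pro-apoptotic factor CHOP, had a median of 12.8 TPM (10.8 to 17.7). The ranges of these 3 genes did not overlap each other or those of the scarcer genes. Psat1 (median 1.14 TPM), Phgdh (1.04), Asns (0.773) and Trib3 (0.585) had ranges that overlapped from one to the next. Slc7a11, the cystine and glutamate exchanger, was lowest, with a median of 0.0594 TPM and between 8 and 72 raw counts per library. By median TPM, Atf4 stood above 96.7% of the genes in the TPM tables and Slc7a11 above 2.41%.

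**Figure D2:**
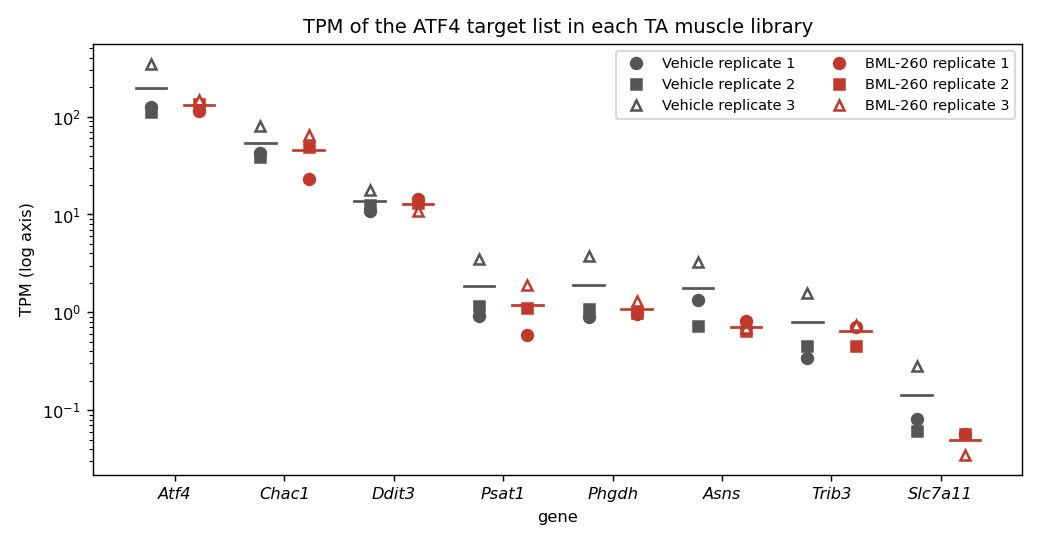
TPM of the 8 measured genes in each library on a log axis, in order of their median; short lines are group means (n = 3). Vehicle replicate 3 (open grey triangles) is the highest library for all 8 genes, and the levels run from 348 TPM (Atf4, vehicle replicate 3) to 0.0347 TPM (Slc7a11, BML-260 replicate 3).

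The comparison asked whether 4 weeks of BML-260 changed the mRNA of these genes in aged muscle. The threshold was the one drawn in the study's volcano plot: a change of 1.3-fold or more together with p under 0.05 before adjustment. None of the 8 measured genes passed it in edgeR's quasi-likelihood test. Over all tested genes 5.75% passed it, 4.86% lower and 0.896% higher with BML-260. With a Benjamini-Hochberg adjusted p under 0.05, edgeR called 0 of the 16188 genes (0%), 966 genes had an unadjusted p under 0.05, and DESeq2 called 95, none of them among the 8. The log2 fold changes (BML-260 over vehicle) were below 0 for 7 of the 8 genes, with a median of -0.34 against -0.0039 over all tested genes. Without vehicle replicate 3, 6 of the 8 were above 0 and the median was 0.12, against 0.0017 over all genes. No listed gene passed the threshold in that fit either, in which 3.98% of all genes did.

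Atf4 had 6163, 5717 and 12304 normalized counts in vehicle replicates 1, 2 and 3, and 6119, 6427 and 7040 with BML-260. Vehicle replicate 3 was high, and the other 5 libraries lay within 5717 to 7040 with both groups mixed. The log2 fold change was -0.30 (SE 0.28, 95% confidence interval -0.95 to 0.34; adjusted p = 0.803 from the edgeR quasi-likelihood fit after Benjamini-Hochberg adjustment, 0.507 to 1.00 over the alternatives). Leaving out vehicle replicate 3 turned it to 0.13 (SE 0.14, interval -0.17 to 0.43).

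Ddit3, the cell death factor downstream of ATF4, had 302, 384 and 379 normalized counts with vehicle and 426, 354 and 291 with BML-260. Each group's range lay across the other's, and vehicle replicate 3 did not stand out. The log2 fold change was 0.0064 (SE 0.19, interval -0.43 to 0.45), and 0.057 without that library. With all libraries, changes of more than 1.36-fold in either direction lay outside the interval. Ddit3 overlaps Mbd6 and Mars1 on the other strand, and whether the counting used strand is not given in the sources used here, so reads of these genes may have been mixed.

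Trib3 encodes a pseudokinase that restrains ATF4 and AKT signaling. Its normalized counts were 20.02, 27.9 and 66.6 with vehicle and 45.8, 26.0 and 42.8 with BML-260. The lowest and the highest value both came from vehicle mice. Its log2 fold change of -0.013 (SE 0.50, interval -1.17 to 1.14) became 0.67 (SE 0.46, interval -0.34 to 1.68) without vehicle replicate 3, the widest swing among the 8 genes.

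Chac1 had 1874, 1789 and 2589 normalized counts with vehicle and 1112, 2103 and 2786 with BML-260. Here the lowest and the highest library were both from BML-260 mice, and the spread of the BML-260 group (coefficient of variation 42.1%) was above that of the vehicle group (21.1%). The log2 fold change was -0.060 (SE 0.31, interval -0.77 to 0.65), and 0.12 without vehicle replicate 3.

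Phgdh, Psat1 and Asns, the listed enzymes of amino acid synthesis, had their highest counts in vehicle replicate 3. Of 10 other enzymes of amino acid synthesis and one-carbon metabolism, described below, 2 were highest in that library. Their median ratio to the mean of the other vehicle libraries was 0.868 there. Phgdh, which opens the serine pathway, had 47.7, 61.0 and 143.6 normalized counts with vehicle and 56.2, 52.0 and 68.4 with BML-260. Psat1, the next enzyme of that pathway, had 58.1, 80.1 and 154.1 with vehicle and 42.3, 71.0 and 113.6 with BML-260. In both genes the groups overlapped. The log2 fold changes were -0.52 for Phgdh (SE 0.43, interval -1.50 to 0.46) and -0.38 for Psat1 (SE 0.46, interval -1.44 to 0.68), and both turned positive without vehicle replicate 3 (0.11 and 0.12).

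Asns, asparagine synthetase, had 74.4, 48.3 and 134.7 normalized counts with vehicle and 57.04, 41.0 and 42.8 with BML-260. Vehicle replicates 1 and 3 lay above all BML-260 libraries, while vehicle replicate 2 lay among them. The log2 fold change was -0.87 (SE 0.40, interval -1.80 to 0.047), with an adjusted p of 0.788 from the edgeR quasi-likelihood fit after Benjamini-Hochberg adjustment (0.404 to 1.00 over the alternatives). Without vehicle replicate 3 it was -0.39 (SE 0.35, interval -1.16 to 0.37).

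Slc7a11, whose window held the 2 CARE matches, had 21.9, 17.8 and 53.9 normalized counts with vehicle and 17.3, 15.0 and 9.78 with BML-260. It was the 1 gene of the 8 whose groups did not overlap, as was the case for 12.1% of all tested genes. The gap between the groups was narrow, between 17.8 (vehicle replicate 2) and 17.3 (BML-260 replicate 1), which correspond to 14 and 20 raw counts. The log2 fold change was -1.15 (SE 0.54, interval -2.39 to 0.087), with an adjusted p of 0.788 from the edgeR quasi-likelihood fit after Benjamini-Hochberg adjustment (0.387 to 1.00 over the alternatives). Without vehicle replicate 3 it was -0.50 (SE 0.58, interval -1.77 to 0.77). Slc7a11 and Asns were the 2 genes whose log2 fold change stayed below 0 in every alternative that could be fitted. Both passed the threshold when vehicle replicate 2 was left out (log2 fold changes -1.42 and -1.15), a fit in which 7.22% of all genes did.

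**Figure D3:**
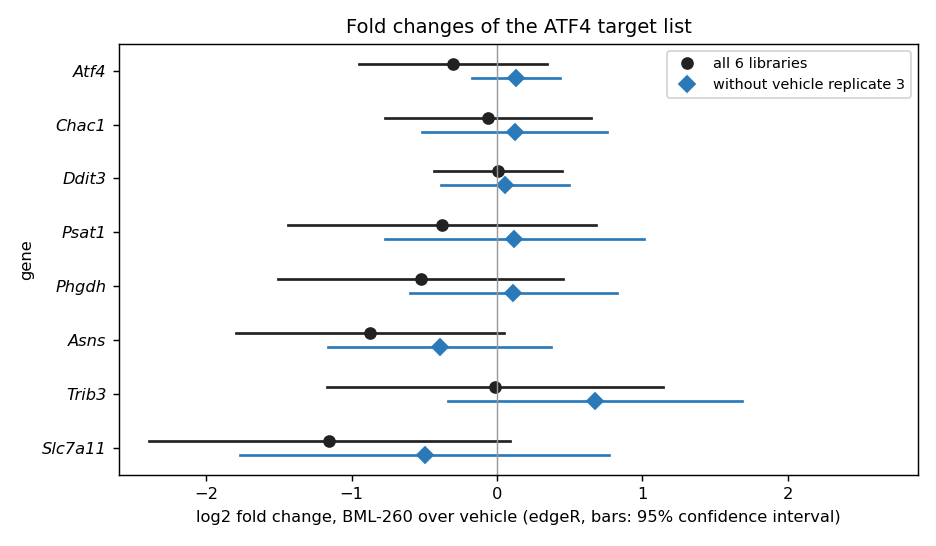
Log2 fold changes (BML-260 over vehicle) of the 8 genes from edgeR with 95% confidence intervals, with all 6 libraries (circles) and without vehicle replicate 3 (diamonds). Every interval includes 0 in both fits, and the estimates of Atf4, Chac1, Psat1, Phgdh and Trib3 change sign.

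The secreted factors were close to absent. Fgf21, a metabolic hormone that ATF4 induces in stressed muscle, had 2 raw counts in vehicle replicate 2 and 0 in the other 5 libraries. A count of 0 allows up to 3 counts, or between 0.0526 and 0.0759 CPM (counts scaled to the library total) in these libraries (counting error only). Gdf15, a stress hormone that lowers food intake, had 4, 8 and 8 raw counts with vehicle and 5, 0 and 0 with BML-260. These sums of 20 and 5 counts came from few reads and were not tested.

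Single TPM values were also compared between the groups, a scale on which vehicle replicate 3 was the highest library for most genes. In exact two-sided permutation tests of log2(TPM + 1), p was 0.1 for Slc7a11, the smallest value that 3 against 3 libraries allow, 0.2 for Asns and between 0.6 and 1 for the others. Mean Atf4 was 195 ± 133 TPM with vehicle and 132 ± 17.1 TPM with BML-260 (SD, n = 3 each). The ratios of the mean TPM (BML-260 over vehicle) ran from 0.354 (Slc7a11) to 0.929 (Ddit3), and the ratios of the mean normalized counts from 0.450 (Slc7a11) to 1.00 (Ddit3 and Trib3). On the log2(TPM + 1) scale the median of all genes was itself at -0.11. Without vehicle replicate 3 the TPM ratios of Asns (0.694) and Slc7a11 (0.701) were below 1, and those of the other 6 genes lay between 1.09 (Ddit3) and 1.62 (Trib3).

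A high value in vehicle replicate 3 was shared by 6 of the 8 genes. In that library the normalized counts of the 8 genes were a median of 2.21 times the mean of the other 2 vehicle libraries, against 1.00 over all tested genes. The ratio was highest for Trib3 (2.78), Slc7a11 (2.71) and Phgdh (2.64), followed by Psat1 (2.23), Asns (2.20) and Atf4 (2.07). It was lower for Chac1 (1.41) and Ddit3 (1.11), the 2 genes that had their highest normalized count in another library. As a share of the mean, the vehicle spread was 45.7% for Atf4 and the BML-260 spread 7.18%.

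**Figure D4:**
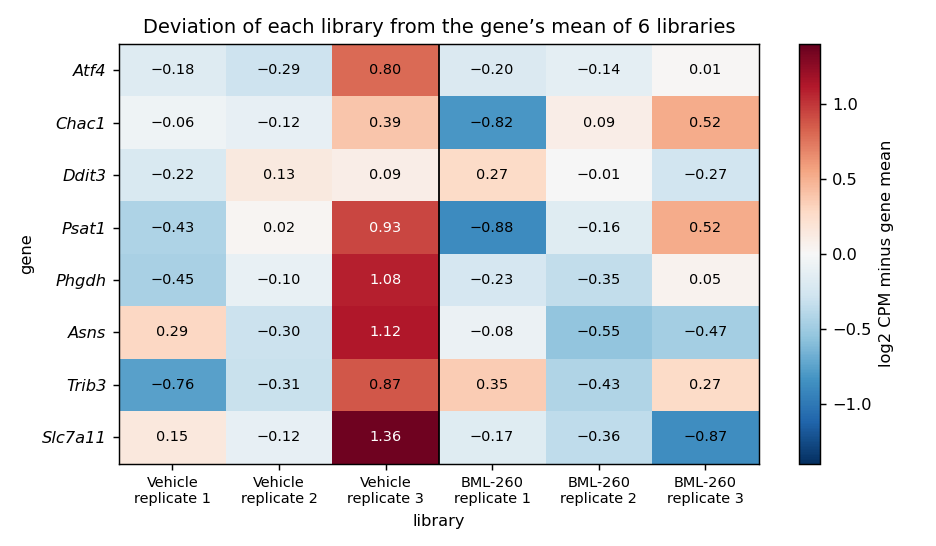
Deviation of log2 CPM (after TMM scaling) from the mean of the 6 libraries for each gene, by library; red is above and blue below the mean. Vehicle replicate 3 is above the mean for all 8 genes, from 0.09 (Ddit3) to 1.36 (Slc7a11).

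The 5 tested genes outside the list whose profile over the 6 libraries lay nearest to that of Atf4, by the root mean square difference of centred log2 CPM, were Hspa1l (0.0417), Anxa7 (0.0442), Appl2 (0.0596), Klf6 (0.0702) and Siah1a (0.0744). Since Atf4 stood out in vehicle replicate 3 alone, this choice also picks genes that are high there. Hspa1l, a chaperone of the HSP70 family, had 1552 normalized counts in it and 676 to 847 in the other libraries. The nearest of the listed genes was Phgdh (0.198), and 507 tested genes outside the list lay nearer to Atf4 than it did.

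Other genes around ATF4 were counted in 9 lists with 91 genes, of which 88 were tested. At the threshold 1 was higher and 6 were lower with BML-260 (7.95% of the 88, against 5.75% of all genes), and none had an adjusted p under 0.05 in edgeR's test. Their median log2 fold change was -0.021, and 0.023 without vehicle replicate 3. In that fit 1 gene was called higher and 2 lower, where 1.06% of all genes were called higher and 2.92% lower. With all libraries the groups of 7 of the 88 genes did not overlap (7.95%), against 12.1% of all tested genes. The 7 were Cebpg, Slc7a1, Eprs, Gadd45a, Cdkn1a, Edem1 and Hyou1.

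The arm that controls eIF2 alpha showed no call among 16 genes, with or without vehicle replicate 3 (median log2 fold change -0.017, and 0.038 without it). It holds the 4 kinases and genes that regulate them, the alpha subunit of eIF2, subunits of its exchange factor eIF2B, and the phosphatase subunits. At its ends stood Dele1, which carries mitochondrial stress to HRI, with 0.31 (SE 0.19), and Ppp1r15a with -0.81 (SE 0.54). Ppp1r15a encodes GADD34, the inducible subunit that reverses eIF2 alpha phosphorylation. Its normalized counts were 791, 610 and 3017 with vehicle and 760, 709 and 1046 with BML-260, so vehicle replicate 3 was again the high library. Without it the log2 fold change was 0.25 for Ppp1r15a and 0.14 for Dele1.

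The 5 bZIP partners and related stress factors had no call (median -0.14, and -0.065 without vehicle replicate 3). They ran from Nupr1 (-0.50, SE 0.34) to Cebpg, a dimer partner of ATF4 (0.20, SE 0.13). Without vehicle replicate 3 Nupr1 was at -0.098 and Cebpg at 0.18. Cebpg had 2575, 2507 and 2451 normalized counts with vehicle and 2830, 3076 and 2791 with BML-260, and its groups did not overlap.

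Among 10 other enzymes of amino acid synthesis and one-carbon metabolism 1 was called in each direction (median 0.19, and 0.034 without vehicle replicate 3). Gpt2, the mitochondrial alanine aminotransferase, was called higher. It had 13273, 7972 and 6659 normalized counts with vehicle and 13176, 14971 and 15797 with BML-260. Its log2 fold change was 0.65 (SE 0.26, unadjusted p = 0.0359 and adjusted p = 0.788 by edgeR's test). The groups overlapped, since vehicle replicate 1 lay just above BML-260 replicate 1, though below BML-260 replicates 2 and 3. Cth, which makes cysteine from cystathionine, was called lower, with 138, 203 and 325 normalized counts against 110, 150 and 132. Its log2 fold change was -0.77 (SE 0.32, unadjusted p = 0.0393 and adjusted p = 0.788 by edgeR's test). Without vehicle replicate 3, Gpt2 kept its call (0.46) and Cth lost it (-0.39). Gpt2 lost its call when vehicle replicate 2 or any single BML-260 library was left out, and in the fits on TPM, 7 of 16 alternatives in all, and Cth lost its call in 9 of 16.

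Of 8 other amino acid transporters 7 were tested, all 7 had log2 fold changes below 0 (median -0.28), and 2 were called. Slc7a5, the light chain of the large neutral amino acid transporter LAT1, had 62.9, 129.6 and 255.9 normalized counts with vehicle and 91.6, 47.0 and 56.2 with BML-260 (log2 fold change -1.20, SE 0.50). Slc7a1, the cationic amino acid transporter CAT1, had 121.1, 144.9 and 422.7 against 113.2, 103 and 121 (-1.03, SE 0.45). Its groups did not overlap, but the gap was narrow, between 121.1 (vehicle replicate 1) and 121 (BML-260 replicate 3). Both were highest in vehicle replicate 3, and neither was called without it (-0.55 and -0.25). Each lost its call in 7 of the 14 alternatives that could be fitted, the replicate block among them. Without vehicle replicate 3 the median of the list was -0.040. The weakest change was that of Slc1a5, a neutral amino acid transporter (-0.043, SE 0.16).

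Cytosolic tRNA charging was narrow in its spread. None of the 13 genes, aminoacyl-tRNA synthetases and the tRNA exporter Xpot, was called, and their log2 fold changes ran from -0.15 (Eprs, SE 0.15) to 0.26 (Yars, SE 0.15) with a median of 0.042 (0.073 without vehicle replicate 3). These genes had deep counts, for example 14194 to 17445 normalized counts for Eprs. Of the 9 that had a promoter window, 5 held a CARE match (Aars, Gars, Iars, Tars and Yars).

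The largest differences were in the list of 7 stress effectors, of which 3 were called lower (median -1.18, and -0.12 without vehicle replicate 3). Cdkn1a, which encodes the cell cycle inhibitor p21, had 307, 1254 and 1527 normalized counts with vehicle and 104, 185 and 260 with BML-260 (log2 fold change -2.50, SE 0.57, unadjusted p = 0.00204 by edgeR's test). Gadd45a, a growth arrest gene raised in atrophying muscle, had 1919, 4879 and 5103 against 771, 1151 and 1027 (-2.02, SE 0.35, unadjusted p = 0.000389 by edgeR's test). The groups of both genes did not overlap, and both kept their call without vehicle replicate 3 (-2.10 and -1.79). Both were called in all 16 alternatives. With Benjamini-Hochberg adjustment edgeR gave them adjusted p-values of 0.598 and 0.553. DESeq2's Wald test gave unadjusted p = 0.000602 for Cdkn1a and 3.36e-09 for Gadd45a. The value of Gadd45a is low enough to stay under 0.05 after adjustment over all tested genes. Both genes are also known targets of p53 and other factors.

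Eif4ebp1, a repressor of cap-dependent translation, was called lower, with 1000 and 1085 normalized counts in vehicle replicates 1 and 2, 6378 in vehicle replicate 3 and 812, 918 and 1101 with BML-260. Its log2 fold change of -1.58 (SE 0.65) was -0.15 without that library and no longer called, and the call was lost in 10 of 16 alternatives in all. Sesn2, which restrains mTORC1, was at the other end of the list (0.44, SE 0.26).

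**Figure D5:**
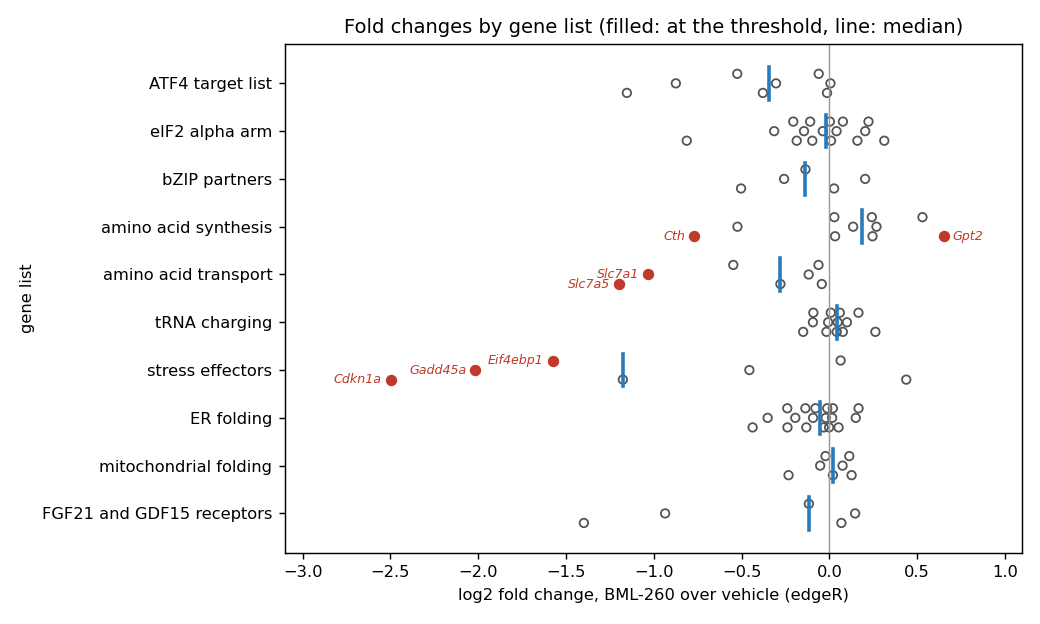
Log2 fold changes (BML-260 over vehicle) of every tested gene in the ATF4 target list and the 9 surrounding lists; filled points are genes at the threshold and vertical lines are medians. The called genes are Gpt2 on the right and Cth, Slc7a5, Slc7a1, Eif4ebp1, Gadd45a and Cdkn1a on the left, and none lies in the ATF4 target list itself.

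The neighbouring stress pathways had no calls. Of 18 genes of the ATF6 and XBP1 arms, which serve protein folding in the endoplasmic reticulum, 13 lay below 0. The 18 ran from Edem1 (-0.44, SE 0.21) to Hyou1 (0.17, SE 0.15), with a median of -0.056 (0.061 without vehicle replicate 3). Without that library Edem1 was at -0.16 and Hyou1 at 0.23. Mitochondrial chaperones and proteases (7 genes) ran from Clpx (-0.23) to Clpp (0.13), with a median of 0.021 (-0.018). Of the 7 receptor genes for FGF21 and GDF15, 5 were tested, from Fgfr2 (-1.40, SE 1.05) to Fgfr4 (0.15, SE 0.33), with a median of -0.12 (-0.017). The GDF15 receptor gene Gfral had no counts in any library.

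Calls were also counted over all tested genes with the CARE letters in their window. Of these 338 genes 6.51% were called (21 lower and 1 higher) and the median log2 fold change was 0.0092. Among all 11928 tested genes with a window 5.86% were called (580 lower and 119 higher), with a median of 0.0027. Without vehicle replicate 3 the shares were 5.25% of 343 genes (13 lower and 5 higher) and 4.05% of 12110 (355 lower and 136 higher).

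Markers of cell types were read in the same libraries. The summed normalized counts of 10 muscle fiber genes, those of fast fibers with Acta1, Ckm and Mb, which are not particular to fast fibers, were 3157413 in vehicle replicate 3 and 5267444 to 6385602 in the other 5 libraries. No fiber gene was called and none was at 0. Macrophage markers summed to 6510, 6741 and 19168 with vehicle and 3927 to 4889 with BML-260, and 9 of 10 were called lower, 8 of them also without vehicle replicate 3. Neutrophil markers summed to 442 to 8640 with vehicle and 119 to 284 with BML-260, with all 6 tested called lower, and 5 without vehicle replicate 3. Both sets of markers had their highest sum in that library, and the calls lost without it were Cd163 and Mmp9. Of 10 denervation markers 7 were called lower, and 8 without vehicle replicate 3, where their sum was 0.908 times the mean of the other 2 vehicle libraries. Their sums overlapped (22754 to 39265 with vehicle and 24375 to 31408 with BML-260) and consisted mostly of Myh8, which was not called.

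Schwann cell markers and 4 of the 5 tested adipocyte markers were highest in vehicle replicate 3. Adipocyte markers summed to 5705 to 7768 with vehicle and 6295 to 7058 with BML-260, mostly from Fabp4. In vehicle replicate 3 Fabp4 had 6531 normalized counts, against 5610 to 7613 in the other libraries, and Lep, too low to test, had 0. The other 4 tested adipocyte markers (Adipoq, Plin1, Cidec and Retn) summed to 1022 in vehicle replicate 3 and 91.5 to 163 in the other libraries. Of the 5 tested, 1 was called lower, and none without that library. Schwann cell markers summed to 4593 in vehicle replicate 3 and 1354 to 1990 in the other libraries, with none of 6 called, and 2 called higher without it. Fibroblast markers (1 of 7 called lower, Col1a1 with all libraries and Col3a1 without that one) summed to 28873 to 45809 with vehicle and 26702 to 44960 with BML-260. Endothelial markers (none of 6 called in either fit) summed to 6789 to 8047 and 6677 to 8707. The 7 lymphocyte markers were too low to test, at 17.1 to 51.9 summed counts. The part of these differences in the levels of the ATF4 targets was not tested.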

How the data were processed

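RNA sequencing of TA muscle from 3 vehicle and 3 BML-260 mice was analysed from the deposited tables. The authors used a stranded total RNA kit, and their processing notes name the mm10 genome, StringTie 2.1.3b, Bowtie2 2.3.4.1, HISAT2 2.1.0 and Trimmomatic 0.38. The authors deposited raw counts for 45777 genes (45679 found in the RefSeq table by identifier) and TPM for 16800 genes per library. How strand and multi-mapped reads were counted is not given in the sources used here. The members, the gene lists and the tests were chosen with earlier results of these data known. The genes named are the 10 members, the 5 tested genes nearest to Atf4 over the 6 libraries and, in each surrounding list, the genes with the largest and smallest log2 fold change and those at the threshold, 4 at most.

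Counts were tested in R 4.3.3 with edgeR 4.0.16 (filterByExpr, TMM, quasi-likelihood F-test, Benjamini-Hochberg over 16188 genes holding 99.95% of counts). The standard error is the log2 fold change over the square root of F. Alternatives used DESeq2 1.42.0, limma 3.58.1, other scalings and filters, a replicate block and leaving out each library. P-values measure the spread between mice, 1 library each, and the number of libraries limits the precision. Plots came from matplotlib 3.10.9 (Python 3.11.15).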

Additional observations from a re-analysis of the deposited data

How the results depend on the processing

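The 8 measured genes were refitted under 16 alternatives, which gave 121 values. Of these, 102 kept the direction and the side of the threshold, 2 passed the threshold (Asns and Slc7a11 without vehicle replicate 2) and 17 changed sign. The median log2 fold change of the 8 genes ran from -0.55 to 0.12 and was below 0 in 15 of 16 alternatives; the exception left out vehicle replicate 3, and with limma voom and quality weights, which gave that library a weight of 0.219, the median was -0.084. The number of listed genes at the threshold was 0 in each alternative except those that leave out a library, where it ran from 0 to 2.

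Leaving out single libraries, log2 fold changes ran from -0.50 to 0.13 for Atf4, -0.14 to 0.13 for Ddit3, -0.32 to 0.67 for Trib3, -0.38 to 0.23 for Chac1, -0.79 to 0.12 for Psat1 and -0.81 to 0.11 for Phgdh. With quality weights the values were 0.050 for Atf4 and 0.48 for Trib3. Ddit3 was -0.016 with upper quartile scaling, -0.079 on log2(TPM + 1) with or without the filter and -0.083 on log2(TPM + 0.1). On the log2(TPM + 1) scale the median of all genes shifted to -0.11.

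The named genes of the other lists were refitted in the same way, a choice made after seeing the data. Of 326 values, 272 kept direction and side of the threshold, 40 lost the call, 4 gained one and 10 changed sign. Gpt2 lost its call in 7 alternatives, Cth in 9, Slc7a5 and Slc7a1 in 7 each and Eif4ebp1 in 10. With the replicate block Slc7a5, Slc7a1 and Eif4ebp1 were not called. Dele1 and Edem1 gained a call without vehicle replicate 1, and Ppp1r15a and Fgfr2 without vehicle replicate 2. Sign changes on leaving out 1 library were seen for Ppp1r15a (-1.18 to 0.25), Slc1a5 (-0.12 to 0.10) and Fgfr4 (-0.11 to 0.29). With quality weights Ppp1r15a was 0.061, Slc1a5 0.058 and Fgfr2 1.48. Clpp was -0.019 on both log2(TPM) scales, and Fgfr4 was -0.00036 on log2(TPM + 1) without the filter. The cause of these changes was not tested.

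Over all genes 931 were at the threshold. The number was 1416 with no filter on low counts, 415 on log2(TPM + 1), 431 on log2(TPM + 0.1), 446 on log2(TPM + 1) without the filter, and 503 (without BML-260 replicate 2) to 2223 (without vehicle replicate 1) when libraries were left out. With an adjusted p under 0.05, edgeR called 0 genes, 1 with no filter, 1 with at least 10 counts in every library, and 0 to 9 when libraries were left out, while DESeq2 called 95 and limma voom with quality weights 1.

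Replicate numbers were shared between the groups, but nothing in the labels pairs the mice. Correlations of the deviations of same-numbered libraries were 0.162, 0.0541 and 0.1096, so the numbers were not taken as pairs, although each library correlated best with its own number, a hint from the data and not the design. With the replicate number as a block 1057 genes were at the threshold and none of the listed genes, their median was -0.29, Trib3 was 0.13 and Ddit3 -0.0032.

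The scarcer genes rest on few reads (8 to 206 counts in a library for Slc7a11, Trib3, Asns, Phgdh and Psat1) and all fits on 3 mice a group, with 1 vehicle library that stood apart. How much each adds to the width of the intervals was not tested. Fgf21 and Gdf15 could not be tested.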
